A study of Mus musculus with 4 samples.

Results

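Claudins are the membrane proteins that form the strands of tight junctions, the seals between neighbouring epithelial cells, and the set of claudins a cell makes decides whether that seal blocks ions or lets chosen ones through. The claudins followed here are 10 that are known from kidney epithelium, Cldn1, Cldn2, Cldn3, Cldn4, Cldn6, Cldn7, Cldn8, Cldn10, Cldn16 and Cldn19, in whole kidneys of mouse embryos at E14.5 (Theiler stage 22). The members were every probe set that the platform annotation assigns to one of these 10 genes alone, which gave 17 probe sets of the 45101 on the array, and 10 of the 18193 genes that have a probe set of their own. Kidneys null for Wnt4 (allele Wnt4tm1Amc, stated strain 129, 2 arrays, each from a pool of 12 kidneys) were set against wild-type kidneys (stated strain CD-1, 2 arrays, each from a pool of 2 kidneys). The protocol text speaks of CD-1 matings for both. Wnt4 is the secreted signal that turns condensed mesenchyme into the renal vesicle, so the study compared the genotypes to find genes of the vesicle and the nephron parts that grow out of it. Allele, stated strain and pool size changed together, so their effects cannot be told apart. The pools are given as biological replicates with no litter or animal named, and a p-value here speaks only of how far these pools lay apart.

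In the mature kidney, claudins differ by segment. Proximal tubule cells carry Cldn2, a pore for sodium and water, and the variant of Cldn10 that favours anions; the thick ascending limb carries Cldn16 and Cldn19, which work together in magnesium and calcium reabsorption, and the variant of Cldn10 that favours sodium. Cldn3, Cldn4, Cldn7 and Cldn8 belong to the distal nephron and the collecting duct, Cldn1 is found in the parietal cells of Bowman's capsule, and Cldn6 is typical of embryonic epithelia. The collecting duct grows from the ureteric bud and the other segments from the renal vesicle.

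The claudins split into 3 groups in the mutant. By their brightest tested probe sets, Cldn2 and Cldn10 fell, Cldn1 and Cldn3 rose, and Cldn4, Cldn6, Cldn7 and Cldn8 did not pass the test. The rise of Cldn1 rests on 1 of its 4 probe sets, and the calls of Cldn3 depended on a setting of the test, as given below. Cldn16 and Cldn19 were too dim to be tested with the rest. Values are deposited signal intensities on a linear scale, and log2 differences are mutant minus wild type on log2(signal + 16), a scale that understates changes of dim probe sets. The test was limma across all 27022 probe sets kept, with Benjamini-Hochberg adjusted p under 0.05 as the threshold. Of the 13 member probe sets tested (8 genes), 3 were lower and 5 higher, that is 61.5%, against 10.8% of all probe sets tested (5.39% lower and 5.41% higher). With 1 probe set per gene, the brightest over all arrays, 2 of 8 genes were lower and 2 higher, against 5.82% lower and 6.7% higher among the 13432 genes tested. The median log2 difference was -0.06 over the 8 genes and 0.0 over all genes. The 17 probe sets do not measure 10 genes equally, since Cldn1 and Cldn3 have 4 each and Cldn2 has 2.

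The promoter windows of the genes that differed are given here, so that lower and higher genes can be compared by their letters. They are RefSeq windows of build GRCm38.p6, from 250 bases before to 50 after a start, written 5′ to 3′ on the gene's strand. Capitals mark the matches found, some of which read as the reverse complement. Both strands were searched for the letters of 7 known binding sequences, which are spelled out after the windows.
Cldn2, chrX:139800558-139800857, + strand: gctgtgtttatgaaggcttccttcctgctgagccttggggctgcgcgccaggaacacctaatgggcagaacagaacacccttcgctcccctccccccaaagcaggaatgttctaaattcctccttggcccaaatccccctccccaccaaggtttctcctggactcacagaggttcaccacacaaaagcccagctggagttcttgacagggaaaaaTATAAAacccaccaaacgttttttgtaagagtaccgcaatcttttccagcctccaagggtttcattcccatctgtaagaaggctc
Cldn10, upstream start, chr14:118787621-118787920, + strand: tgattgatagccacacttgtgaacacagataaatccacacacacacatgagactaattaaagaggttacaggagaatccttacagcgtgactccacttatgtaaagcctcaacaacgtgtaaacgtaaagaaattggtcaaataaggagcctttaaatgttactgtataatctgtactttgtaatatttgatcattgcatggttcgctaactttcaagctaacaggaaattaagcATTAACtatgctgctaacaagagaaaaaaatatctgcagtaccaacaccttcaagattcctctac
Cldn10, downstream start, chr14:118854700-118854999, + strand: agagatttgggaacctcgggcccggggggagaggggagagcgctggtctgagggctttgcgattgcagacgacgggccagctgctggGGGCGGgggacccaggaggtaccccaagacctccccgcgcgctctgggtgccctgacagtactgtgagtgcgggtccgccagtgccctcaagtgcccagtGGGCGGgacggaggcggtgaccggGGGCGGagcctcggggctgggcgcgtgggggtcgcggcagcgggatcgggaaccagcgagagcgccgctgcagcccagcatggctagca
Cldn16, chr16:26462885-26463184, + strand: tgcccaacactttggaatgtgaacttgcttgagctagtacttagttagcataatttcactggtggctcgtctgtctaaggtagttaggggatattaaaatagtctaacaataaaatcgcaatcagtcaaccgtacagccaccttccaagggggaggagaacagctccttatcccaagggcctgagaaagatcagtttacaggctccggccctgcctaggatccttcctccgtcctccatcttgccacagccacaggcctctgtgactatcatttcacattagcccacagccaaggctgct
Cldn1, chr16:26371790-26372089, - strand: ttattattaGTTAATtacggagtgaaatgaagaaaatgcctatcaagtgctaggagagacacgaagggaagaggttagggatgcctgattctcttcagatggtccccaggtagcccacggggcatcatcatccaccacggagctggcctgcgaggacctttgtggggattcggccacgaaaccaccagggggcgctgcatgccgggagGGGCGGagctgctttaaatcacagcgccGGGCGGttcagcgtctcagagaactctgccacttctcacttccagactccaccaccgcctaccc
Cldn3, chr5:134985964-134986263, + strand: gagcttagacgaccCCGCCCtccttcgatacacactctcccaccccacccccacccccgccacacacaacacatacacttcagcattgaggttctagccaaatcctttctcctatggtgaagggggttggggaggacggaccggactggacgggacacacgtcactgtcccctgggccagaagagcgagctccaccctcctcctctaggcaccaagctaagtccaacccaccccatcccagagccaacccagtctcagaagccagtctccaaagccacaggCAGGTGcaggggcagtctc

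None of the 7 was shared by the windows of Cldn2, Cldn10 and Cldn16, the genes with lower signals. The TATA box, TATAAA, stood in the Cldn2 window with its first base at -35 from the start. It stood in 13.6% of all 32851 RefSeq windows of this length. Part of the site of the HNF1 family of tubule factors, GTTAAT, stood in the upstream Cldn10 window at -15 and in the Cldn1 window at -241, so in a gene that fell and a gene that rose. It stood in 7.1% of all windows. The GC box, GGGCGG, stood 3 times in the downstream Cldn10 window, 2 times in the Cldn1 window and once in the Cldn3 window, and 35.7% of all windows hold it. The E-box that Snail factors bind, CAGGTG, stood in the Cldn3 window with its first base at 32 after the start, and 20.2% of all windows hold it. It stood in 4 of the 12 claudin windows searched, the others being windows of Cldn4, Cldn6 and Cldn7, which did not pass. The GC box stood in 8 of the 12, among them both windows of Cldn19, which overlap and are not separate promoters. The Cldn16 window held no match. The core of the HNF4 site, CAAAGTCC, was in 0 of the 12 windows of the 9 claudins that have one, against 1.42% of all windows. The same held for the TCF/LEF sequence, CTTTGAT, which 3.73% of all windows hold. It also held for the sequence of the Grainyhead-like factors, AACCNGTT, which 2.09% hold. The matches in these 6 windows did not overlap one another, and a match or its absence is a description of the letters only. The Cldn10 starts differed in base composition, with 36.0% G and C in the upstream window and 72.0% in the downstream one, against a median of 52.7% over all windows.

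Wnt4 itself, checked as the targeted gene, read 406 and 272 in the mutant and 1885 and 1769.9 in wild-type kidneys at probe set 1450782_at. That is 18.6% of the wild-type mean (log2 difference -2.40 ± 0.18 (SE), limma adjusted p = 0.000196), and at 1441687_at it was 23.7%. Of 10 tested genes of a renal vesicle list 9 were lower and 0 higher, led by the Notch ligand gene Jag1, the Wnt antagonist gene Dkk1, Lhx1 and Dll1. Of 3 tested nephron progenitor genes 1 was lower and 0 higher, with a median log2 difference of -0.46 and sums of 6638 and 5629 in the mutant and 9400.0 and 7323 in wild-type kidneys. Cited1 fell (log2 difference -0.95, limma adjusted p = 0.0028), while Wt1 (-0.46, adjusted p = 0.0831) and Six2 (-0.17, adjusted p = 0.524) did not pass. The shares called were 90.0% of the renal vesicle list and 33.3% of the progenitor list, against 12.5% of all genes tested. Each array had a mean of 500.0 after trimming 2% at each end, and the medians were 137.5 and 159.3 in mutant and 150.9 and 148.9 in wild-type arrays.

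**Figure D1:**
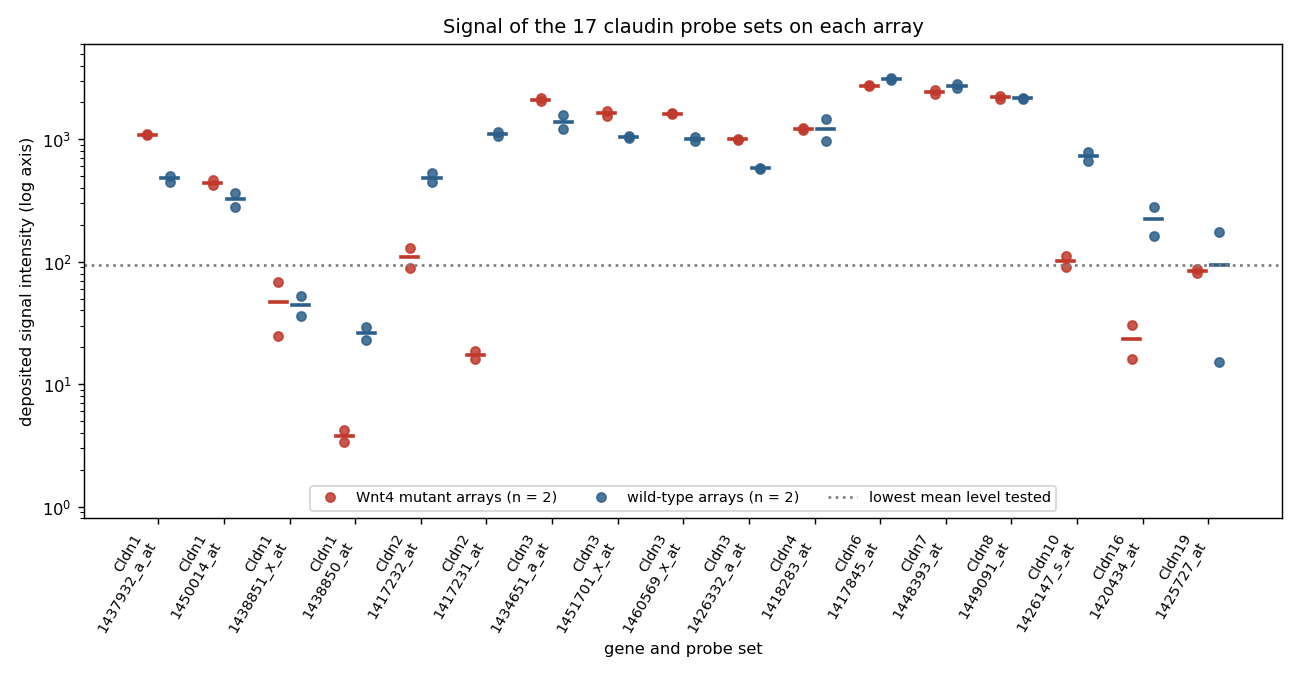
Deposited signal intensity (log axis) of the 17 claudin probe sets on each array, Wnt4 mutant left and wild type right at each probe set; dots are arrays, short bars group means and the dotted line the lowest mean level tested (94.2). The mutant dots lie below the wild-type dots for Cldn2, Cldn10 and Cldn16 and above them for the tested probe sets of Cldn1 and all probe sets of Cldn3. They also lie below at the untested Cldn1 probe set 1438850_at, and by less at Cldn6 and Cldn7.

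Cldn2, the cation and water pore of the proximal tubule, had the largest difference of the tested member probe sets. At probe set 1417231_at the mutant arrays read 18.6 and 16.2, against 1062 and 1143 on the wild-type arrays. The mutant mean was 1.6% of the wild-type mean, the groups were far apart, and the log2 difference was -5.07 ± 0.23 (SE), a 33.5-fold lower level (95% interval 23.1-fold to 48.5-fold) with a limma adjusted p of 3.07e-05. Of the 27022 probe sets 5, itself included, had a log2 difference as low. The mutant signals lay below 94.2, so this probe set entered the test through the wild-type arrays, and the size depends on the pseudocount (log2 difference -5.91 with 1 and -3.84 with 64).

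The other Cldn2 probe set, 1417232_at, read 89.6 and 129 in the mutant and 444 and 525 in wild-type kidneys. The groups did not overlap there either, but the fall was smaller, 4.04-fold (log2 difference -2.01 ± 0.24, limma adjusted p = 0.00163). Both Cldn2 probe sets passed under each alternative that included them. The difference in size between them was not tested, and signals of different probe sets cannot be set against each other.

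Cldn10, whose variants serve the proximal tubule and the thick ascending limb, is read by a single probe set, 1426147_s_at, with 90.3 and 111 in the mutant and 667 and 782 in wild-type kidneys. Every mutant array was below both wild-type arrays. The log2 difference was -2.67 ± 0.20 (SE), a 6.36-fold lower level (95% interval 4.61-fold to 8.76-fold, limma adjusted p = 0.000206), and 36 of the 13432 genes, itself included, were as low. The _s_at ending marks probes that match more than 1 transcript. Which of the starts shown above the signal comes from was not analysed here.

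Cldn16, which with Cldn19 serves magnesium and calcium reabsorption in the thick ascending limb, was dim. Its probe set 1420434_at read 30.6 and 16.1 in the mutant, against 163 and 281 in wild-type kidneys, which left its mean log2 level in the lowest 40% that was not tested. The groups did not overlap, and the mutant mean was 10.5% of the wild-type mean. The log2 difference was -2.58, -3.21 with a pseudocount of 1 and -1.69 with 64. In a fit with no filter it passed (limma adjusted p = 0.0257).

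Cldn19, the partner of Cldn16, gave no usable comparison. Its probe set 1425727_at read 87.7 and 80.6 in the mutant and 15.3 and 174 in wild-type kidneys, so the mutant arrays lay between the wild-type arrays. With no filter the limma adjusted p was 0.874, and the 95% interval of the log2 difference ran from -1.52 to 2.28. Leaving out wild-type replicate 1 turned the difference of 0.38 into -0.93, and leaving out wild-type replicate 2 made it 1.68.

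Cldn1 rose at its brightest probe set. Cldn1 is a sealing claudin, needed in mice for the water barrier of the skin. Probe set 1437932_a_at read 1106 and 1078 in the mutant and 450.6 and 506 in wild-type kidneys, and the groups did not overlap. The log2 difference was 1.17 ± 0.13 (SE), a 2.25-fold higher level (95% interval 1.84-fold to 2.74-fold) with a limma adjusted p of 0.00102, and it passed under each of 14 alternatives. Of the 13432 genes 185, itself included, were as high.

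The other Cldn1 probe sets gave other values. Probe set 1450014_at read 420.3 and 466 in the mutant and 280.1 and 366 in wild-type kidneys, without overlap, and did not pass (log2 difference 0.45 ± 0.19, limma adjusted p = 0.174). The remaining pair were dim and not tested. At 1438850_at the mutant arrays read 3.37 and 4.21 and the wild-type arrays 29.3 and 22.9, which is the opposite direction, and with no filter the limma adjusted p was 0.0659. At 1438851_x_at the readings overlapped, with 24.7 and 68.4 in the mutant and 36.1 and 52.8 in wild-type kidneys. Averaged over its 4 probe sets, Cldn1 had a log2 difference of 0.13 and did not pass (limma adjusted p = 0.805), so the rise of Cldn1 rests on 1437932_a_at.

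Cldn3, a sealing claudin of the distal nephron and collecting duct, was higher at each of its 4 probe sets. At 1434651_a_at the mutant arrays read 2041 and 2170 and the wild-type arrays 1573 and 1214. At 1426332_a_at they read 984 and 1007 in the mutant and 584 and 570.3 in wild-type kidneys. No mutant array fell into the wild-type range at these or at the other probe sets. Probe set 1451701_x_at read 1699 and 1549 in the mutant and 1064 and 1026 in wild-type kidneys, and 1460569_x_at read 1624 and 1605 in the mutant and 1037 and 966 in wild-type kidneys. The fold differences ran from 1.52-fold to 1.71-fold (log2 differences 0.60 to 0.77, limma adjusted p = 0.0244 at 1434651_a_at and 0.00474 to 0.00765 at the other 3). Their probes may share transcript sequence, so they are not 4 independent readings. All 4 calls were lost when limma was run with no intensity trend (adjusted p = 0.0505 to 0.15). They were lost at 1434651_a_at also without mutant replicate 1 (0.0616), without mutant replicate 2 (0.106) and with no filter (0.0568), and at 1451701_x_at without mutant replicate 1 (0.0705).

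Cldn4, Cldn7 and Cldn8 also belong to the distal nephron and collecting duct, where Cldn4 and Cldn8 act together in a chloride path between cells. Cldn8 read 2277 and 2137 in the mutant and 2141 and 2174 in wild-type kidneys, with overlapping groups. Its log2 difference was 0.03, with a 95% interval from -0.17 to 0.24 (limma adjusted p = 0.87). Cldn4 read 1233 and 1201 in the mutant and 1465 and 966 in wild-type kidneys, so the mutant arrays lay inside the wild-type range. The spread of the wild-type arrays left a wide interval, from -0.38 to 0.44 around 0.03 (adjusted p = 0.939).

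Cldn7 read 2519 and 2330.2 in the mutant and 2820 and 2605 in wild-type kidneys, a log2 difference of -0.16 (95% interval -0.37 to 0.05, limma adjusted p = 0.326). Cldn6, a claudin of embryonic epithelia, read 2757 and 2715 in the mutant and 3192 and 3070 in wild-type kidneys, a log2 difference of -0.19 (95% interval -0.384 to -0.002, limma adjusted p = 0.19). Both had every mutant array just below the wild-type arrays, and neither passed. For Cldn4, Cldn6, Cldn7 and Cldn8 the wider ends of the intervals were 1.36-fold, 1.31-fold, 1.3-fold and 1.18-fold. Groups did not overlap at 11 of the 13 member probe sets tested, with the mutant lower at 5 and higher at 6. Over all probe sets tested the share was 54.1%, with the mutant lower at 28% and higher at 26.1%.

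**Figure D2:**
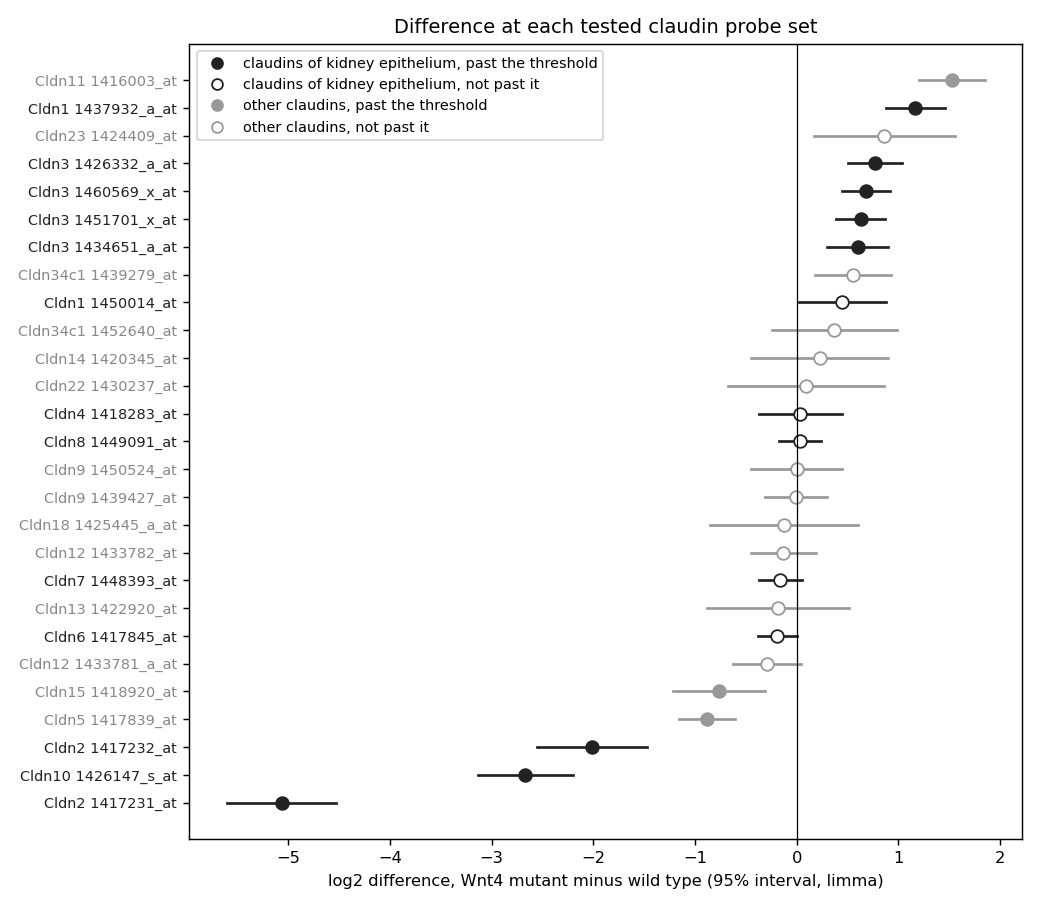
Log2 difference, Wnt4 mutant minus wild type, at each tested claudin probe set, with its 95% interval from limma (n = 2 arrays per group); filled dots passed the threshold, and grey marks claudins outside the 10. Cldn2 (-5.07 and -2.01) and Cldn10 (-2.67) lie far to the left, Cldn1 (1.17 and 0.45) and Cldn3 (0.60 to 0.77) to the right, and Cldn4, Cldn6, Cldn7 and Cldn8 within 0.20 of 0.

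In the RefSeq annotation of GRCm38.p6, Cldn1 and Cldn16 are adjacent protein-coding genes on chromosome 16; Cldn1 rose at 1437932_a_at, and the Cldn16 signals were lower in the mutant. Cldn4 and Cldn3 are adjacent on chromosome 5, where Cldn3 rose and Cldn4 had a log2 difference of 0.03, with an interval that overlaps those of 2 of the 4 Cldn3 probe sets. No difference between neighbours was tested. Cldn6 lies next to Cldn9 on chromosome 17. Neither Cldn9 probe set passed, with log2 differences of -0.006 (792 ± 86.8 in mutant and 794 ± 64.1 in wild-type kidneys at 1439427_at, SD, n = 2 each) and -0.002.

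Of the 14 claudins outside the 10 that are on the array, 11 were tested at 14 probe sets, and 2 probe sets were lower and 1 higher (21.4% called, against 10.8% of all probe sets). Cldn5, a claudin known from endothelial cells though not from them alone, fell to 1091 and 992 in the mutant, against 2114 and 1767 in wild-type kidneys (log2 difference -0.88, limma adjusted p = 0.00308). Cldn15, a claudin known from the intestine, had 197 and 212 in the mutant and 325 and 395 in wild-type kidneys, a fall near the threshold (log2 difference -0.77, adjusted p = 0.0456). It was lost without the intensity trend (0.0788), with no filter (0.0919), with the replicate number as a block (0.053), without mutant replicate 1 (0.161), without mutant replicate 2 (0.105) and without wild-type replicate 2 (0.148). Cldn11, known from Sertoli cells and oligodendrocytes, rose to 2122 and 1634 in the mutant, against 618 and 655 in wild-type kidneys (log2 difference 1.53, limma adjusted p = 0.000475). It passed under each of 14 alternatives, and the call of Cldn5 was lost with no intensity trend (0.0622). The 11 probe sets of Cldn9, Cldn12, Cldn13, Cldn14, Cldn18, Cldn22, Cldn23 and Cldn34c1 did not pass, with log2 differences from -0.29 for Cldn12 to 0.86 for Cldn23.

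The other tight junction genes tested had smaller log2 differences than Cldn2 and Cldn10. Of 13 tested partners of claudins (occludin and its relatives, the cytoplasmic plaque proteins Tjp1, Tjp3, Cgn and Cgnl1, and adhesion proteins of the junction), 3 were lower and 0 higher, with a median log2 difference of -0.26 (23.1% called, against 12.5% of all genes tested). Cxadr, an adhesion protein of the junction, fell 1.57-fold (600.1 ± 27.0 in mutant and 952 ± 35.0 in wild-type kidneys, SD, n = 2 each, limma adjusted p = 0.0119), and 3 of its 4 further probe sets were also lower. The call at this probe set was lost without mutant replicate 1 (0.0758) and without the intensity trend (0.0738). Ocln, occludin itself, fell 1.46-fold (729.7 ± 40.1 in mutant and 1072 ± 14.9 in wild-type kidneys, SD, n = 2 each, limma adjusted p = 0.02), while its other probe set had a log2 difference of 0.23 (adjusted p = 0.544), and the call was lost without mutant replicate 1 (0.0679), without mutant replicate 2 (0.13), without the intensity trend (0.099) and with arrays centred on their medians (0.0635). Ildr2, of the family that holds the corners where 3 cells meet, fell 2.21-fold (adjusted p = 0.0431), a call lost in 6 of 13 alternatives, among them leaving out mutant replicate 1 (0.134) or wild-type replicate 1 (0.086). Tjp1, the scaffold that binds claudin tails, had 4745 ± 150.2 in mutant and 4427 ± 167 in wild-type kidneys (SD, n = 2 each) and a log2 difference of 0.10 (adjusted p = 0.505).

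Of 17 tested genes of the polarity complexes, which place the junction at the apical end of the cell, 4 were lower and 1 higher (median -0.13). That is 29.4% called, against 12.5% of all genes tested, and with no intensity trend 1 was lower and 0 higher. Mpp5, also called Pals1, a scaffold of the Crumbs complex, fell 1.82-fold (452 ± 29.3 in mutant and 832 ± 45.6 in wild-type kidneys, SD, n = 2 each, limma adjusted p = 0.00576) and passed under each of 14 alternatives, with 1 of its 2 further probe sets also past the threshold. Llgl2 fell 1.54-fold (adjusted p = 0.0266) and Prkcz, an atypical protein kinase C, 2.10-fold (0.0347). Magi3 rose 1.56-fold (0.0141), with 2 further probe sets that did not pass. With no intensity trend the calls of Llgl2 (limma adjusted p = 0.0888), Prkcz (0.078) and Magi3 (0.0945) were lost, and that of Prkcz also with no filter (0.0891). Leaving out either mutant array took the calls of Llgl2 (0.0618 without replicate 1, 0.149 without replicate 2), Prkcz (0.0732 and 0.0914) and Magi3 (0.0585 and 0.0828) past 0.05. Leaving out wild-type replicate 1 did so for Prkcz (0.159).

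Among transcription factors tied to epithelia, 1 of 8 tested was lower and 1 higher (25.0% called, against 12.5% of all genes tested). Grhl2, known in mice as an activator of junction genes including Cldn4, did not pass (572 ± 26.3 in mutant and 649.9 ± 43.4 in wild-type kidneys, SD, n = 2 each, log2 difference -0.18, limma adjusted p = 0.464). Hnf4a, a factor of the proximal tubule, was lower at each of its 4 tested probe sets. At the brightest, 1427001_s_at, it read 21.9 and 135 in the mutant and 1591 and 1629.9 in wild-type kidneys (log2 difference -4.43, limma adjusted p = 0.00163). The mutant mean lay below 94.2, and the difference was -3.43 without mutant replicate 1 and -5.42 without mutant replicate 2. Klf5, a zinc finger factor of the collecting duct, rose 1.63-fold (adjusted p = 0.00514), with another tested probe set at a log2 difference of -0.56 (0.16). Without the intensity trend the calls of Hnf4a at 1427001_s_at and of Klf5 were lost (0.051 and 0.0651). Of 5 mesenchymal factors known to repress claudins or epithelial genes, Twist1 rose 2.32-fold (681 ± 78.7 in mutant and 284 ± 5.83 in wild-type kidneys, SD, n = 2 each, limma adjusted p = 0.00261), and Snai1, Snai2, Zeb1 and Zeb2 did not pass (log2 differences 0.39, 0.03, 0.49 and 0.29). That 1 of 5 is 20.0%, against 12.5% of all genes tested.

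Markers of the cells that the kidneys hold moved on the same arrays, and their part in the claudin differences was not tested. In whole kidneys, fewer cells of a type and less RNA per cell cannot be told apart. Beside the falls of Cldn2 and Cldn10 and the lower signals of Cldn16, 10 of 12 proximal tubule genes tested were lower and 0 higher, with summed signals of 1558 and 1616 in the mutant and 10292 and 10909 in wild-type kidneys. The smallest p-values there were those of Pdzk1, a scaffold of apical transporters, Keg1, the phosphate transporter gene Slc34a1 and the glucose transporter gene Slc2a2. Of 9 loop and distal tubule genes, 6 were lower and 1 higher (2339 and 2474 in the mutant, 7334 and 8506 in wild-type kidneys), led by Tmem52b and by Slc12a1, the salt transporter of the thick ascending limb, which fell 14.7-fold (81.2 and 120 in the mutant, 1446 and 1943 in wild-type kidneys, limma adjusted p = 5.83e-05). The log2 differences of these 9 genes ran from -5.23 to 1.97, and 1 of them was called higher without the intensity trend too. Slc12a1 was also the 1 gene lower, with 0 higher, of 8 tested transporters, channels and regulators of salt and divalent ion transport. Of the tested genes, 83.3% of the proximal tubule list and 77.8% of the loop and distal list were called, against 12.5% of all genes. The salt and divalent ion list, at 12.5%, equalled that share. The lists share Hnf4a, Pou3f3, Slc12a1, Lhx1, Pax8 and Cldn5 with other lists, so their counts are not independent.

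Beside the values of Cldn1, Cldn3, Cldn4, Cldn7 and Cldn8, 1 of 16 general epithelial genes fell and 2 rose. That is 18.8% called, against 12.5% of all genes tested. The median log2 difference of the 16 was -0.06, with summed signals of 32065 and 29913 in the mutant and 31077 and 31136 in wild-type kidneys. The 3 were the desmosome gene Dsp and the keratin genes Krt8 and Krt18, and each call was lost in 4 or 5 alternatives. Of 15 ureteric bud and collecting duct genes, 5 were lower and 1 higher (median -0.42, sums of 11905 and 11174 in the mutant and 19568 and 18062 in wild-type kidneys). Spry1, Calb1 and Emx2 of that list, all lower, were named for their small p-values, and the 1 higher gene was not among them. Relative to the mean of the general epithelial genes on the same arrays, the log2 difference was 1.21 for Cldn1 at 1437932_a_at, 0.65 to 0.82 for Cldn3, -2.62 for Cldn10 and -5.02 and -1.97 for Cldn2. For Cldn4, Cldn6, Cldn7 and Cldn8 it was 0.08, -0.15, -0.12 and 0.08. Relative to the mean of the ureteric bud and collecting duct genes, which was -0.51, it was 1.68 for Cldn1 at 1437932_a_at, 1.11 to 1.28 for Cldn3, 0.55 for Cldn4 and for Cldn8, 0.32 for Cldn6 and 0.35 for Cldn7. The genes of that list ran from -2.57 to 0.77, and 9 of 15 did not pass, so its mean is not a level that they shared. Against that list Cldn10 was at -2.15 and Cldn2 at -4.55 and -1.5. These differences between differences were not tested. Of 6 parietal and podocyte genes 6 were lower (1855 and 2011 in the mutant, 6036 and 6381 in wild-type kidneys), led by Podxl, while Cldn1, a parietal cell claudin in the mature kidney, rose at 1437932_a_at.

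Signals of markers of other cell types differed as well. Of 10 stroma genes 6 were higher and 0 lower (sums of 49818 and 50286 in the mutant, 32104 and 29628 in wild-type kidneys), led by Pdgfra, Ntn1 and Foxd1, and 6 of 8 skeletal muscle genes were higher (7950.0 and 7384 in the mutant, 2212 and 1438 in wild-type kidneys), led by Actc1 and Myog. Of 4 red cell genes 2 were higher, Hbb-y and Hba-x, which encode globins of early red cells. Beside the fall of Cldn5, 4 of 10 endothelial genes, Cldn5 among them, were lower and 0 higher (9350.0 and 9628 in the mutant, 12825 and 12161 in wild-type kidneys). That count was 1 without the intensity trend and 2 when either mutant array was left out or the arrays were centred on their medians. Of 5 tested gut and urothelium genes 2 were lower and 0 higher, with sums of 1026 and 1290.0 in the mutant and 1786 and 1459 in wild-type kidneys. None of the 5 passed without the intensity trend, without mutant replicate 1 (where the median turned to 0.02) or without wild-type replicate 1, and 1 passed without mutant replicate 2 or with no filter. No probe set of these lists was listed at 0.

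**Figure D3:**
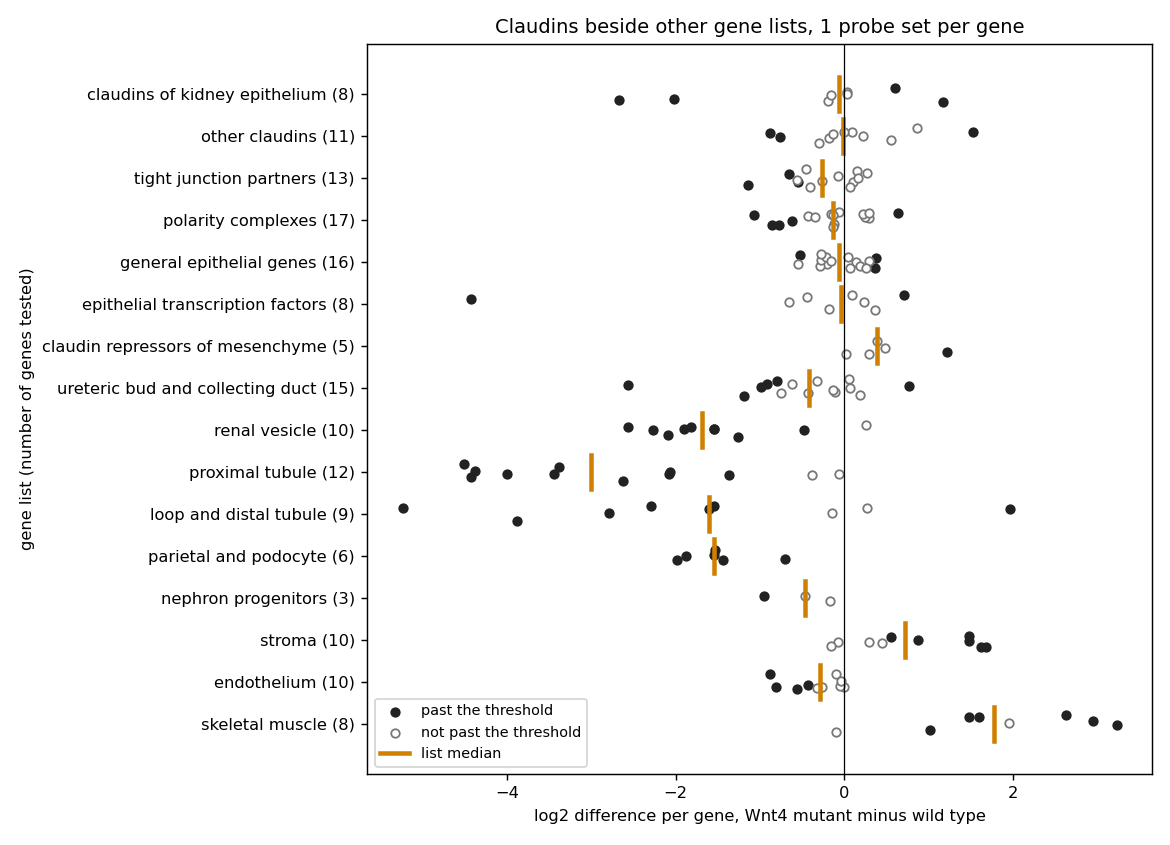
Log2 difference per gene, Wnt4 mutant minus wild type, at the brightest tested probe set, for the claudins and other gene lists, with the number of genes tested in brackets; filled dots passed the threshold and bars are list medians. The claudins spread to both sides around a median of -0.06, the proximal tubule genes lie to the left (median -3.0), and the general epithelial genes gather near -0.06.

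The differences of the members held their direction under most other settings. Cldn2, Cldn10 and Cldn1 at 1437932_a_at passed in every alternative that included them, and Cldn1 was lost only when its 4 probe sets were averaged. Among the tested member probe sets, direction turned only at Cldn4 and Cldn8, whose differences were near 0, when 1 array was left out.

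**Figure D4:**
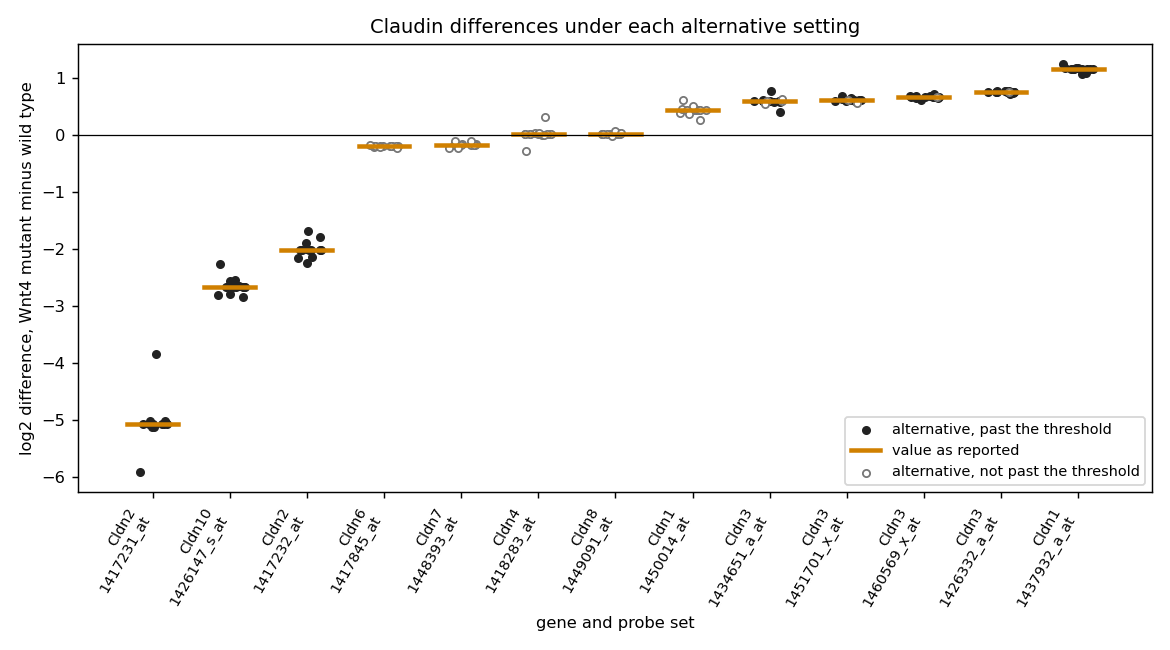
Log2 difference of each tested claudin probe set, Wnt4 mutant minus wild type, as reported (bar) and under each alternative setting (dots, filled where the adjusted p was under 0.05). The dots of Cldn2 at 1417231_at spread from -5.91 to -3.84, those of Cldn10 from -2.84 to -2.26 and those of Cldn1 at 1437932_a_at from 1.09 to 1.25.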

How the data were processed

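Whole-kidney RNA was amplified in 1 round and hybridised to Affymetrix Mouse430_2 arrays, per the labels' protocols. The values deposited by the authors are linear signal intensities, 1 for each probe set of an array. The submitters' processing notes name GCOS; how it summarised and scaled the probes is not stated. The trimmed means show that the arrays were scaled to a common level before deposit. Genes were named through the platform annotation, updated by identifier through RefSeq GRCm38.p6: 34958 of 45101 probe sets paired with 1 gene, 932 named several and 9211 were not listed.

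Signals were taken as log2(signal + 16). The 64 control probe sets and the lowest 40% by mean log2 were left out, which kept a mean level of at least 94.2 in signal. limma 3.58.1 in R 4.3.3 (lmFit, eBayes with an intensity trend) compared 2 arrays with 2, two-sided; gene counts use 1 probe set, the brightest tested by mean log2. The procedure was tested on simulated data, with independent normal noise drawn from the means and variances of the fit itself. Those data held no strain or pool-size effect, so the test does not bear on such effects. An exact test of 2 against 2 arrays cannot give a p below 0.33, and the number of arrays limits the precision.

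Named were all 10 claudins, Wnt4, the other claudins past the threshold and from each gene list up to 4 members past the threshold with the smallest p-values; Six2, Wt1, Tjp1, Grhl2 and the uncalled repressors were chosen after their values were seen. Members and lists were chosen with earlier results of these data known. The alternatives were quantile normalization, median centring, pseudocounts 1 and 64, no filter, the lowest 60% left out, eBayes without trend or robust, the replicate number as a block, no _x_at or _s_at probe sets, the mean over a gene's probe sets, and leaving out each array.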

Additional observations from a re-analysis of the deposited data

How the results depend on the processing

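As reported, 2920 probe sets passed; 858 passed without the intensity trend, where 4 of 13 claudin probe sets passed (3 lower and 1 higher) in place of 8. Without _x_at and _s_at probe sets 5 of 10 claudin probe sets passed, since Cldn10 and 2 of the Cldn3 probe sets carry those endings, against 11.2% of all probe sets under that setting (3.18% without the intensity trend). Leaving out 1 array gave 1479 to 3927 calls over all probe sets, 6 to 8 claudin probe sets and 3 to 4 claudin genes; the counts over all probe sets were 1479 without mutant replicate 1 and 1550 without mutant replicate 2, where the lone mutant array is assumed to vary like the wild-type arrays. With no filter 1991 of 45037 probe sets passed. Centring arrays on their medians gave 1263 lower and 1496 higher. The replicate block gave 2913 calls and 8 claudin calls; the labels share only a number, and the correlation of same-numbered deviations was -0.017.

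Among tested claudin probe sets, signs turned only where the difference had not passed. Among untested ones, Cldn19 ran from -0.925 to 1.678 and Cldn1 at 1438851_x_at from -0.557 to 0.496 when 1 array was left out. Leaving out 1 array gave -0.265 to 0.329 for Cldn4 (the lowest without wild-type replicate 2) and -0.014 to 0.077 for Cldn8 (the lowest without mutant replicate 1). Of the other claudins, Cldn9 was 0.009 at 1439427_at and 0.014 at 1450524_at with median centring, and 0.008 at 1450524_at with quantile normalization. Leaving out 1 array gave -0.116 to 0.103 and -0.243 to 0.239 at these 2, -0.045 to 0.497 for Cldn14, -0.3 to 0.043 for Cldn18 and -0.443 to 0.624 for Cldn22. Means over all probe sets of a gene gave 3 of 8 claudin genes past the threshold, with Cldn1 lost. The share over all 12321 genes of that setting was not counted, so the 3 cannot be weighed against it. Dim signals, such as those of Cldn19 and those of Cldn16 in the mutant, are limited by signal over background.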
